A study of Mus musculus with 6 samples.

Results

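Genes of the cell division cycle and of DNA replication were examined in mouse skin tumours with and without E-FABP, the fatty acid binding protein of the epidermis that Fabp5 encodes. The 36 genes were listed by name for their roles in the cycle. On the arrays 35 of them had a probe set annotated with their symbol alone, out of 18193 genes measured in this way, and Ccnb1, which encodes cyclin B1, was not analysed here. They were sorted by phase into 10 S phase genes (Mcm2 to Mcm7, Pcna, Rrm1, Rrm2 and Tyms), 5 G1/S genes (Ccne1, Ccne2, E2f1, Cdc45 and Chek1) and 20 measured G2/M genes. Tumours had been raised over 5 months with DMBA, a carcinogen that damages DNA, and TPA, a phorbol ester that drives keratinocytes to divide. Wild-type (WT) and E-FABP deficient (EKO) animals received the same treatment, and the labels name 3 biological replicates in each group. Each array held the RNA of cells from digested tumours, which the sample labels call keratinocytes. The sources used here give neither the way Fabp5 was disrupted nor the strain, age and sex of the animals.

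The 6 arrays were close to each other. Their log2 medians lay between 5.41 and 5.43, and pairs of arrays correlated across probe sets at 0.988 to 0.994. Fabp5 separated the groups as labelled, reading 14.82, 14.94 and 14.80 in the WT tumours (replicates 1, 2 and 3) against 8.21, 8.30 and 7.98 in the EKO tumours. Of the listed keratinocyte markers, Krt14 averaged 14.75 in WT and 14.71 in EKO tumours and Trp63 11.59 and 11.67. The collagen gene Col3a1, a fibroblast marker, averaged 13.43 and 13.23, and the macrophage receptor gene Csf1r 10.06 and 9.93. These 4 markers were picked for display once their levels were known. Other markers of the same lists differed more. Among keratinocyte markers, Krt15 averaged 10.90 in WT and 10.58 in EKO tumours and Epcam 11.82 and 11.52. Itga6 averaged 11.21 and 11.47, without overlap. The macrophage marker Mrc1 averaged 8.88 in WT and 7.85 in EKO tumours, and Cd14 6.89 and 7.35. The fibroblast marker Dcn averaged 12.54 and 11.64, and Col1a1 10.78 and 11.18. By the mean 9 of the 10 macrophage and dendritic cell markers and 6 of the 8 fibroblast markers were lower in EKO tumours. Of the 11 keratinocyte markers 4 were lower. These too were chosen after their values were seen. In bulk samples, fewer dividing cells and less of a transcript per dividing cell cannot be told apart.

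A cell copies its DNA once in S phase and divides it in mitosis. In late G1, cyclin E and its kinase release the E2F transcription factors from the retinoblastoma proteins, and E2F then turns on the helicase, clamp and nucleotide genes of S phase. Later the transcription factors B-Myb and Foxm1 work with the MuvB complex at a promoter element called CHR, often found with a CCAAT box. They turn on the genes of G2 and mitosis, such as Cdk1, Plk1 and the kinesins. Transcripts of such genes are therefore used as a measure of how much of a tissue is dividing, and promotion with TPA is known for raising them in the epidermis.

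The promoters of the genes were read first, for the elements named above and for E2F motifs. RefSeq windows of 300 bases, from 250 before to 50 after the annotated start (GRCm38.p6), were given for 29 of the 36 genes. They were searched on both strands for CCAAT, for the CHR element (TTTGAA or TTCGAA) and for an E2F motif (TTTCGCGC, TTTGGCGC, TTTCCCGC or TTTGCCGC). A CHR and a CCAAT box stood together in 13 of 16 G2/M windows, against 8.61% of the 27025 genes with a window. The same pair stood in 2 of 9 S phase genes and in 1 of 4 G1/S genes (Cdc45). An E2F motif stood in 4 of 9 S phase genes (Mcm3, Mcm5, Mcm6 and Mcm7) and 1 of 16 G2/M genes (Cdk1), against 2.61% of all genes. A CCAAT box, with or without a CHR, stood in 14 of 16 G2/M and 8 of 9 S phase genes, against 41.1% of all genes. Among the 4 G1/S genes with a window, a CCAAT box stood in 1 and an E2F motif in 0. A match is a description of the letters only, and where a gene had several windows any of them counted.

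The last 150 bases before the start are shown for 7 genes that the results below describe, 5′ to 3′ on the gene's strand, with every match to the 3 motifs in capitals. Cdk1, Top2a, Cdc20 and Kif11 show the G2/M arrangement, Mcm6 the E2F motifs of S phase, and Pcna and Ccne1 are given because they had the largest differences between the groups among S phase and G1/S genes.
Cdk1 (chr10:69352913-69353062, - strand): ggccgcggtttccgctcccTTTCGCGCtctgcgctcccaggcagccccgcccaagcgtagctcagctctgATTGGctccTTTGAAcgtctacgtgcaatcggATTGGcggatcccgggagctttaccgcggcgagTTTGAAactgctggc
Top2a (chr11:99024190-99024339, - strand): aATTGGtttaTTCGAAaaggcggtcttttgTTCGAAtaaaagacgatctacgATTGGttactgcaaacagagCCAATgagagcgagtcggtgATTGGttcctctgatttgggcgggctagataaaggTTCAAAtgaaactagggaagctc
Cdc20 (chr4:118437344-118437493, - strand): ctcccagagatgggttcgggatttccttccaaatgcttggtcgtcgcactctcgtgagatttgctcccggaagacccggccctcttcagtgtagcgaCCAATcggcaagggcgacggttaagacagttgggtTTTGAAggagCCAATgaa
Kif11 (chr19:37376232-37376381, + strand): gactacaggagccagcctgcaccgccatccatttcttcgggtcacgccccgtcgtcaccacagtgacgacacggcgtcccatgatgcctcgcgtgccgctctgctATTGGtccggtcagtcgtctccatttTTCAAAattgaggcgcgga
Mcm6 (chr1:128359706-128359855, - strand): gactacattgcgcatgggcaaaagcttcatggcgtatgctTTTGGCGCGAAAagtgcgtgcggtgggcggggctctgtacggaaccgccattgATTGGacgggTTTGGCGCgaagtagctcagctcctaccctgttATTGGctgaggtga
Pcna (chr2:132253181-132253330, - strand): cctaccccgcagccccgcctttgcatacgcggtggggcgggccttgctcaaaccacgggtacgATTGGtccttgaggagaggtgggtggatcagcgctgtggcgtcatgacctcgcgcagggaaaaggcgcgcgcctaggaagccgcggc
Ccne1 (chr7:38107491-38107640, - strand): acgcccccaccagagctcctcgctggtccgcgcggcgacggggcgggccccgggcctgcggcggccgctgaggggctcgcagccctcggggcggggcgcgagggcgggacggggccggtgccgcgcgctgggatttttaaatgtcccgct

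Cdk1 carried 3 CCAAT boxes, 2 CHR elements and 1 E2F motif in its whole window, and Top2a carried 6 CCAAT boxes and 4 CHR elements. Mcm6 held 3 E2F motifs, of which the first 2 share bases on opposite strands. Pcna held a single CCAAT box and Ccne1 none of these letters. The 13 G2/M genes with both CHR and CCAAT were all measured, and 10 of them had a lower and 3 a higher mean in EKO tumours, with differences from -0.27 to 0.19. By comparison, 16 of all 20 measured G2/M genes and 50% of all genes had a lower mean.

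EKO tumours were then set against WT tumours, the comparison of the study, whose title describes E-FABP as protective against chemically induced skin tumours. None of the 35 genes passed the test in either direction. Differences are EKO minus WT on the log2 scale and were tested by limma over all 18193 genes with Benjamini-Hochberg adjustment. They ran from -0.27 for the mitotic kinesin gene Kif11 to 0.34 for the cyclin E gene Ccne1, which is 1.26-fold by the means. Adjusted p lay between 0.691 and 0.999 for these genes. Over all genes 0.0055% passed, which is Fabp5 alone.

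Precision was good enough to bound the differences. The 95% intervals of all 35 genes lay within a log2 difference of 1 either way, and those of 29 lay within 0.5. Of all 18193 genes, 17234 had intervals within 1 and 13633 within 0.5. Among the 35 genes the lowest bound was -0.57, for Kif11, and the highest 0.66, for Ccne1. In 19 of the 35 genes the difference was under 0.1 in size, and in 30 it was under 0.2. A size of 0.5 or more was reached by none of them and by 3.98% of all genes. The median size was 0.09 and the median residual SD 0.14, both for the 35 genes and for all genes. With 3 arrays in each group, small differences could not be detected. The intervals are not adjusted for the number of genes, so they do not mark what the adjusted test could call. Those of Pcna, Tyms and Ccne1 left out 0, yet none of these genes passed.

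**Figure D1:**
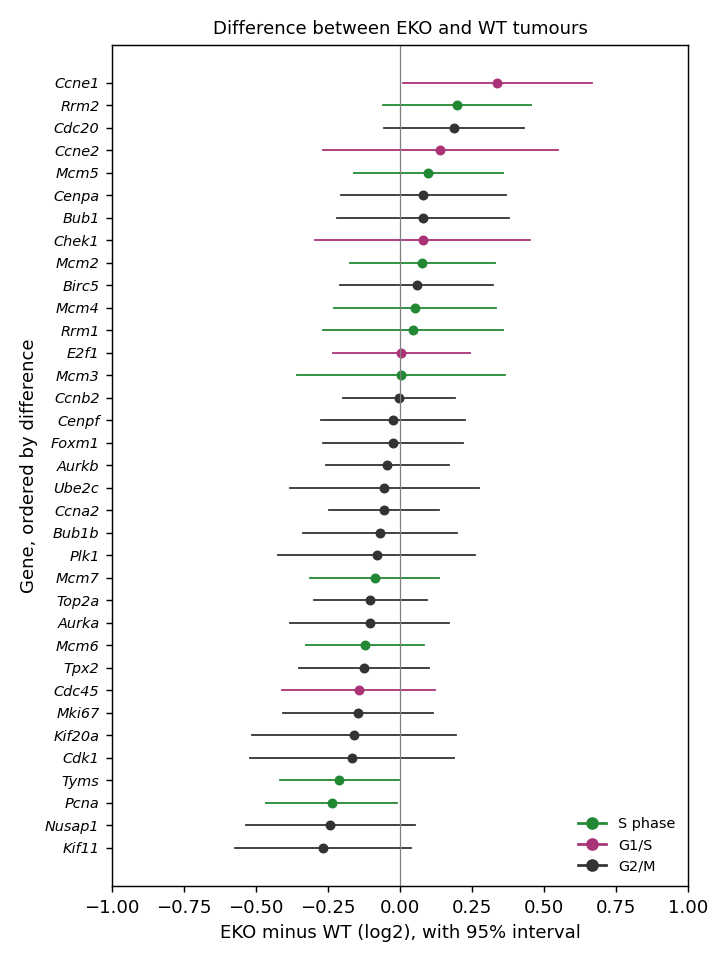
Difference between EKO and WT tumours in log2 units (horizontal axis) for the 35 measured genes (vertical axis), with the limma 95% interval of each as a line and its phase by colour. Every interval lies between -1 and 1, from -0.57 for Kif11 to 0.66 for Ccne1, and those of Pcna, Tyms and Ccne1 alone leave out 0.

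Weaker criteria gave few genes as well. At an unadjusted limma p under 0.05, 2 of the 35 genes were lower in EKO tumours (Pcna and Tyms), where 3.7% of all genes were, and 1 was higher (Ccne1), where 3.44% were. The WT and EKO values did not overlap in 3 genes on the lower side (Pcna, Tyms and Top2a), against 6.19% of all genes, and in 0 on the higher side, against 5.78%. By the mean alone 21 of the 35 were lower in EKO tumours, against 50% of all genes, made up of 16 of 20 G2/M genes, 4 of 10 S phase genes and 1 of 5 G1/S genes. Their median difference was -0.04, against 0.00 for all genes. These counts describe the list and carry no test of their own.

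**Figure D2:**
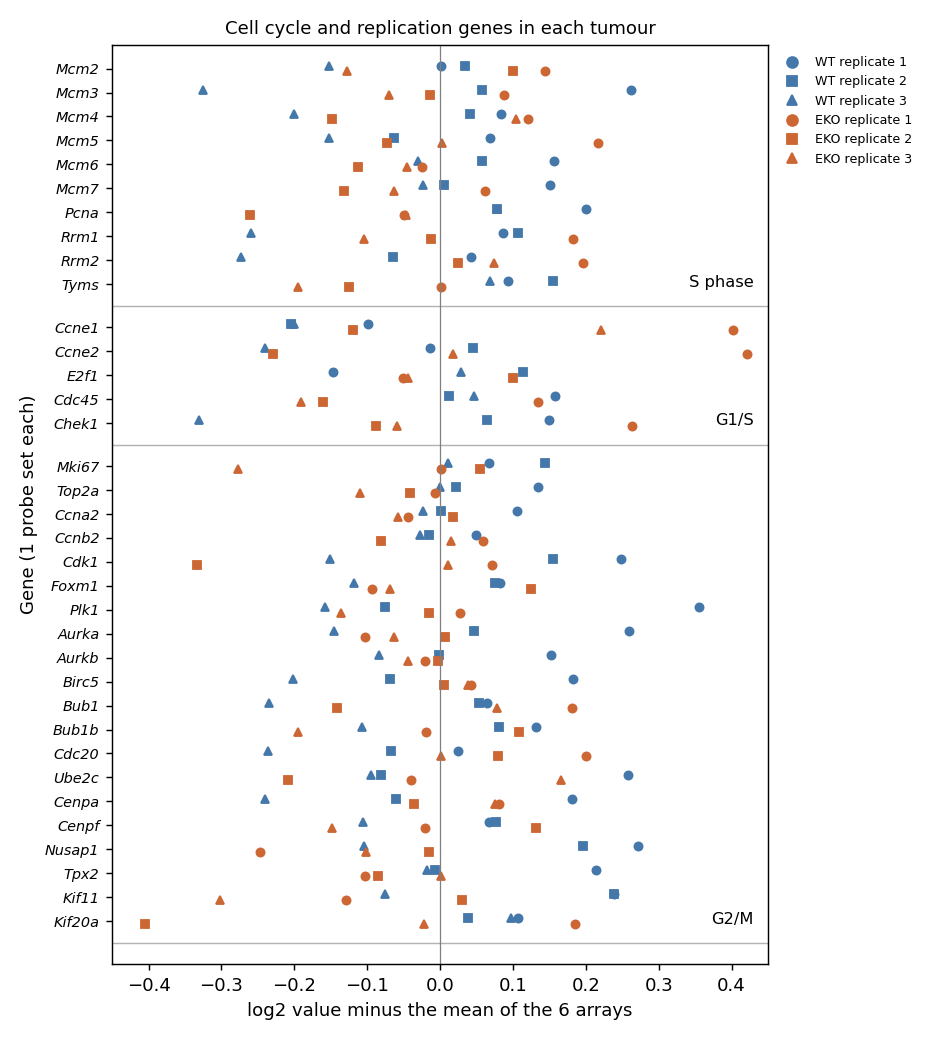
Log2 value of each of the 35 genes in each tumour after taking away that gene's mean over the 6 arrays (horizontal axis), with WT in blue and EKO in orange and the replicate by shape. Values of both groups overlap in all genes but Pcna, Tyms and Top2a, and WT replicate 1 is the highest array in 18 genes.

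Entry into S phase was followed first. Ccne1, whose product cyclin E1 activates Cdk2 at the G1/S transition, read 7.88, 7.78 and 7.78 in WT tumours, replicates 1 to 3 in that order as throughout, against 8.38, 7.86 and 8.20 in EKO tumours. EKO replicates 1 and 3 lay above all WT values, while EKO replicate 2 lay within their range. The difference was 0.34 (SE 0.139, adjusted p = 0.696). Leaving out EKO replicate 2 gave 0.48 (adjusted p = 0.237), and leaving out EKO replicate 1 gave 0.22 (adjusted p = 0.935). Over all its alternatives the adjusted p ran from 0.237 to 0.998. A second probe set of Ccne1 showed the same order in EKO tumours, at 7.60, 7.17 and 7.50, with a WT mean of 7.18 and a difference of 0.24.

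Ccne2, the gene of cyclin E2, was likewise highest in EKO replicate 1, at 8.35, but EKO replicate 2 at 7.70 and EKO replicate 3 at 7.95 lay among the WT values of 7.91, 7.97 and 7.69. Its difference was 0.14 (SE 0.173), and its array values were chosen for display after they were seen. E2f1, the activator that cyclin E and Cdk2 release, read 6.51, 6.77 and 6.68 in WT and 6.60, 6.75 and 6.61 in EKO tumours. The E2f1 groups covered the same range, with a difference of 0.00 (SE 0.101). Cdc45, a subunit of the replicative helicase, had means of 6.89 in WT and 6.74 in EKO tumours. Chek1, the kinase that holds the cycle when forks stall, had means of 7.58 and 7.66.

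The Mcm genes encode the 6 subunits of the ring helicase that opens replication origins. Mcm2 read 9.29, 9.32 and 9.13 in WT and 9.43, 9.38 and 9.16 in EKO tumours, and its groups overlapped (difference 0.08, SE 0.106). Mcm6 read 9.95, 9.85 and 9.77 in WT and 9.77, 9.68 and 9.75 in EKO tumours, where the highest EKO value lay just above the lowest WT value (difference -0.12, SE 0.0866). Mcm7 read 11.03, 10.89 and 10.86 against 10.94, 10.75 and 10.82, with a difference of -0.09. Mcm3, Mcm4 and Mcm5 had differences of 0.00, 0.05 and 0.10. By these brightest probe sets none of the 6 differed by more than Mcm6, and they did not share a direction. Some dimmer probe sets, chosen after their values were seen, differed by more. They gave -0.27 for Mcm3, without overlap, 0.21 for Mcm4 and -0.14 for Mcm5.

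Pcna, the sliding clamp that holds DNA polymerase on its template, was the S phase gene with the smallest p. It read 12.63, 12.51 and 12.51 in WT and 12.38, 12.17 and 12.39 in EKO tumours. Every EKO value lay below every WT value, yet the difference of -0.24 (SE 0.0961, 95% interval -0.46 to -0.01) did not pass (adjusted p = 0.691). Over the alternatives it ran from -0.27 to -0.17. Only 1 probe set was annotated with Pcna, so no second reading was at hand.

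Rrm1 and Rrm2 encode the subunits of ribonucleotide reductase, which makes the deoxynucleotides for replication. Rrm2 read 10.71, 10.61 and 10.40 in WT and 10.87, 10.70 and 10.74 in EKO tumours, a difference of 0.20 (SE 0.108, adjusted p = 0.756) that was 0.07 with a mean over its probe sets and 0.11 without WT replicate 3. The brightest Rrm1 probe set had a difference of 0.04. A dimmer one averaged 8.81 in the WT and 8.31 in the EKO group, a difference of -0.50 (SE 0.162, adjusted p = 0.599 in a fit over all annotated probe sets). The probe sets of Rrm1 thus disagreed, and the dimmer one was chosen after its values were seen. Tyms, the thymidylate synthase gene, read 4.32, 4.38 and 4.29 against 4.23, 4.10 and 4.03. The Tyms groups did not overlap (difference -0.21, adjusted p = 0.696), but its brightest probe set lay under the array median and the remaining 3 lay under the lower quartile in all arrays, where RMA narrows differences.

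At the start of mitosis stand Cdk1 and its cyclins. Cdk1, the kinase that drives entry into mitosis, read 10.23, 10.14 and 9.83 in WT and 10.05, 9.65 and 9.99 in EKO tumours, with overlap and a difference of -0.17 (SE 0.15). Ccna2 and Ccnb2, the genes of cyclins A2 and B2, had differences of -0.06 and -0.00. A dimmer probe set of Ccna2, chosen after its values were seen, averaged 9.32 in WT and 9.07 in EKO tumours. Its difference was -0.25, and its groups did not overlap. Foxm1, a transcription factor of G2/M genes, read 7.34, 7.33 and 7.14 against 7.16, 7.38 and 7.19, with a difference of -0.03 (SE 0.103).

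Mki67, which encodes the proliferation antigen Ki-67, read 11.48, 11.56 and 11.42 in WT and 11.41, 11.47 and 11.14 in EKO tumours. EKO replicate 3 lay lowest, EKO replicate 1 just below the lowest WT value and EKO replicate 2 among the WT values (difference -0.15, SE 0.111, adjusted p = 0.817). Top2a, the topoisomerase that untangles sister chromatids, read 11.05, 10.94 and 10.92 against 10.91, 10.88 and 10.81. The Top2a groups did not overlap, but only just, and the difference was -0.10 (SE 0.0833). A second probe set of Top2a had a difference of 0.01 and overlapping groups.

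Kif11 and Nusap1 had the lowest differences of the 35 genes. Kif11, the kinesin that pushes spindle poles apart, read 8.23, 8.23 and 7.92 in WT and 7.86, 8.02 and 7.69 in EKO tumours, so that EKO replicate 2 lay above WT replicate 3 (difference -0.27, SE 0.13, adjusted p = 0.717). All 3 probe sets of Kif11 had lower EKO means, with differences of -0.27, -0.23 and -0.29, and the dimmest of them did not overlap. Nusap1, a microtubule binding protein of the spindle, read 10.09, 10.01 and 9.71 against 9.57, 9.80 and 9.71 (difference -0.24, SE 0.124, adjusted p = 0.734). Tpx2, which activates Aurora A on the spindle, read 8.67, 8.45 and 8.44 against 8.35, 8.37 and 8.46 (difference -0.13). Kif20a, a kinesin of cytokinesis, had a difference of -0.16, to which EKO replicate 2 at 7.33 contributed most.

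Kinases, checkpoint and anaphase genes followed. Aurka, Aurkb and Plk1, the mitotic kinases, had differences of -0.11, -0.05 and -0.08, and Birc5, the survivin subunit of the Aurora B complex, one of 0.06. Bub1 and Bub1b of the spindle checkpoint had 0.08 and -0.07. Cdc20, the activator of the anaphase-promoting complex, read 11.15, 11.06 and 10.89 in WT and 11.32, 11.20 and 11.12 in EKO tumours, with EKO replicate 3 below WT replicate 1 (difference 0.19, SE 0.103, adjusted p = 0.756). The other two Cdc20 probe sets had 0.16 and 0.13. Ube2c, the ubiquitin-conjugating enzyme of that complex, had -0.05. Cenpa, the histone of the centromere, had 0.08 and the kinetochore gene Cenpf -0.03.

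Several probe sets existed for 26 of the 35 genes, and 24 had more than one not below the lower quartile of every array. In 14 of these 24 the probe sets shared a direction, lower in 8 and higher in 6, and in 10 they did not. Cenpf was among those that shared one, with dimmer probe sets at -0.44 and -0.26 beside -0.03 for the brightest.

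Scores summarised each phase in each tumour, as the average over its genes of how far each lay from its own 6-array mean. The S phase score was 0.11, 0.04 and -0.13 in WT tumours and 0.09, -0.08 and -0.05 in EKO tumours. Both groups spanned much the same range, with means of 0.01 ± 0.124 and -0.01 ± 0.0906 (SD, n = 3 each). The G2/M score was 0.16, 0.04 and -0.10 in WT and 0.00, -0.04 and -0.06 in EKO tumours. EKO values lay between the second and the lowest WT value, and the means were 0.03 ± 0.13 and -0.03 ± 0.0298. The G1/S score was 0.01, 0.01 and -0.14 against 0.23, -0.10 and -0.01, with EKO replicate 1 alone above the WT values.

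Differences between the group means were -0.02 for S phase, -0.06 for G2/M and 0.08 for G1/S, each smaller than the pooled SD between replicates of 0.108, 0.0945 and 0.136. The S phase difference changed sign under 4 of 14 alternatives. That of G2/M was -0.00 without WT replicate 1 and -0.13 without WT replicate 3. That of G1/S was -0.01 without EKO replicate 1 and 0.15 without EKO replicate 2. S minus G2/M, a measure of the balance between the phases, was -0.04, 0.00 and -0.03 in WT and 0.09, -0.04 and 0.01 in EKO tumours, a difference of 0.05 with a pooled SD of 0.049.

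**Figure D3:**
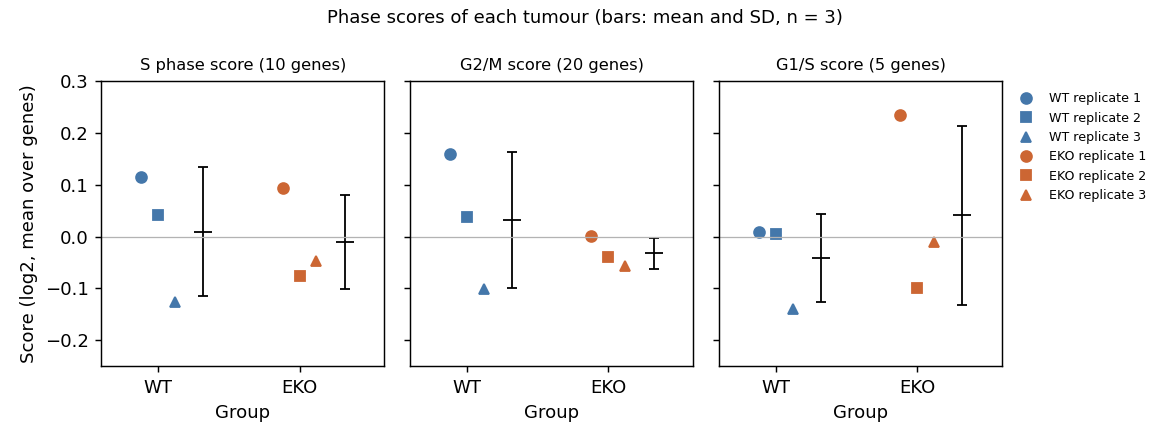
Score of each phase (vertical axis, log2, average over its genes of the distance from the 6-array mean) in WT and EKO tumours, with 1 point per tumour, its replicate by shape, and the mean and SD of each group as bars. The G2/M score runs from -0.10 to 0.16 in WT and from -0.06 to 0.00 in EKO tumours, and EKO replicate 1 has the highest G1/S score, 0.23.

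For S phase and G2/M genes the outermost scores both belonged to WT tumours. WT replicate 1 was the highest of the 6 arrays in 18 of 35 genes, while it was the highest in 21.3% of all genes, and WT replicate 3 was the lowest in 16 of 35, against 18.2%. WT replicate 1 exceeded WT replicate 3 in 34 of the 35 genes, E2f1 being the exception, and in 56.5% of all genes. The median gap was 0.23 for the 35 genes and 0.03 for all genes. In 29 of the 35 genes this gap was larger in size than the difference between EKO and WT. A gap between single arrays picked as outermost tends to exceed a difference between group means. The count therefore does not weigh tumours against genotype. These arrays were singled out after their values were seen, and the gap has no replicate.

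Several marker lists of other tissue also differed between WT replicates 1 and 3. All 11 listed hair follicle genes were lower in WT replicate 1 than in WT replicate 3. Their summed linear signal was 6116, 16661 and 49188 in WT tumours against 39070, 33566 and 19458 in EKO tumours, and none lay under the lower quartile in all arrays. All 8 skeletal muscle markers were higher in WT replicate 1 than in WT replicate 3. Their sums were 6930, 626 and 2130 in WT and 1521, 839 and 657 in EKO tumours. The lowest muscle sum was that of WT replicate 2. All 7 endothelial markers were higher in WT replicate 1 than in WT replicate 3 too, with sums from 584 to 935 in WT and from 619 to 768 in EKO tumours. Other lists were mixed. In WT replicate 1, 2 fibroblast markers were higher and 6 lower than in WT replicate 3. For macrophage and dendritic cell markers these counts were 7 and 3, and for T and NK cell markers 7 and 2. The keratinocyte sums ranged from 109333 to 121571 in WT and from 105757 to 124875 in EKO tumours. The part of these cell types in the result was not tested.

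Further cell cycle genes were read from 8 lists with 177 genes, 169 of them measured. None passed the test in either direction, the smallest adjusted p being 0.621. The median difference was -0.02, 76 had a higher and 93 a lower mean in EKO tumours, and 0 reached a size of 0.5. No overlap was seen in 7 of the 169 on the higher side, against 5.78% of all genes, and in 10 on the lower side, against 6.19%. Their mean score had the same outer arrays as the 35 genes, 0.08 in WT replicate 1 and -0.10 in WT replicate 3, and WT replicate 1 exceeded WT replicate 3 in 141 of 169.

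**Figure D4:**
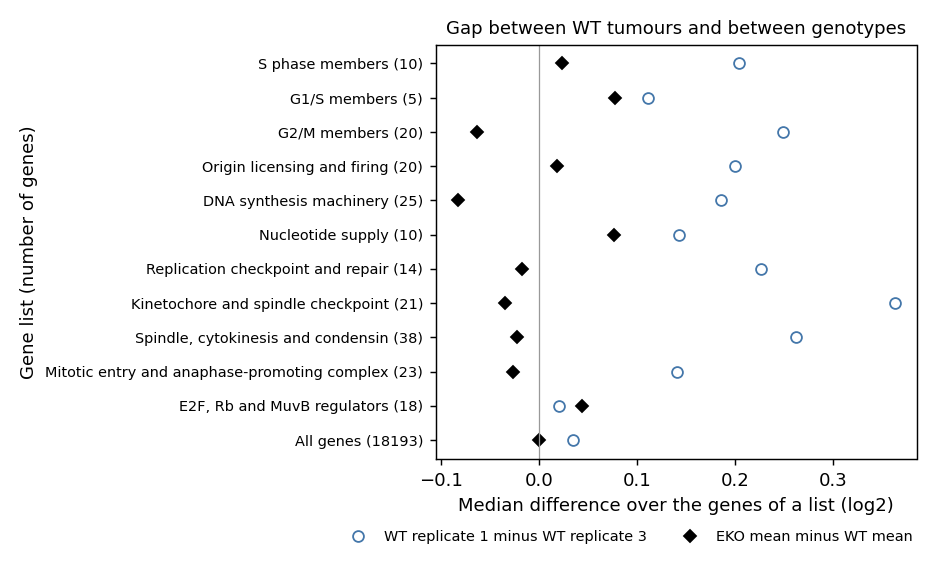
Median over the genes of each list (vertical axis, number of genes in brackets) of the gap between WT replicates 1 and 3 (open circles) and of the difference between EKO and WT means (diamonds), in log2 units. The gap between the WT tumours reaches 0.36 for kinetochore genes, and the diamonds lie between -0.08 and 0.08. Circles compare single arrays picked after their values were seen and diamonds compare group means, so their sizes are unlike measures.

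Replication lists lay near no difference. Origin licensing and firing genes had a median of 0.02 over 20 genes, with Orc3 (-0.26) and Orc4 (0.16) of the origin recognition complex and Gins4 (-0.23) of the helicase having the smallest p. DNA synthesis genes had a median of -0.08, with 17 of 25 lower by their means, and held the clamp loader genes Rfc3 (-0.26) and Rfc4 (-0.26) and the polymerase subunit Pold3 (0.22). Nucleotide supply genes had a median of 0.08 over 10 genes. Among them Cad, the enzyme that starts pyrimidine synthesis, averaged 8.36 in WT against 8.64 in EKO tumours without overlap (adjusted p = 0.625), and the others with the smallest p were Paics (-0.17) and Shmt1 (-0.17). Checkpoint and repair genes had a median of -0.02 over 14 genes, with Fancd2 at -0.17, Blm at 0.16 and Atr at -0.10. Leaving out EKO replicate 1 gave 0.01 for Blm, leaving out WT replicate 1 gave -0.06 for Fancd2, and a mean over probe sets gave 0.09, of the opposite sign, for Atr. In the other replication lists a mean over probe sets gave -0.17 for Orc3, 0.10 for Orc4, 0.08 for Pold3, -0.07 for Rfc4, 0.14 for Cad and -0.04 for Shmt1. Leaving out 1 array gave -0.14 for Gins4 (EKO replicate 2) and -0.16 for Rfc3 (WT replicate 1).

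Mitotic lists also lay near no difference. Kinetochore genes had a median of -0.03 over 21 genes, and Knstrn, a protein of kinetochores and spindle, read 7.82, 7.66 and 7.46 in WT against 8.11, 7.99 and 8.07 in the EKO group (difference 0.41, SE 0.112, adjusted p = 0.621). Its groups did not overlap, nor did those of Nuf2, a subunit of the Ndc80 complex, at -0.24, whereas those of Cenph did at -0.22. Spindle, cytokinesis and condensin genes had a median of -0.02 over 38 genes, with the microtubule polymerase Ckap5 at -0.25, Pttg1 (securin) at -0.17 and Troap at -0.12. Genes of mitotic entry and the anaphase-promoting complex had a median of -0.03 over 23 genes, with the phosphatase Cdc25a at 0.23, the Cdc20 relative Fzr1 at -0.31 and Cks1b at 0.16. A mean over probe sets gave 0.02, of the opposite sign, for Troap, -0.13 for Ckap5, 0.09 for Cdc25a and 0.10 for Cks1b. Leaving out EKO replicate 1 gave -0.15 for Fzr1, and leaving out WT replicate 1 gave -0.10 for Cenph.

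The list of E2F, Rb and MuvB regulators, which also holds the Lin genes, Mybl2, Rbbp4 and the E2F partners Tfdp1 and Tfdp2, had a median of 0.04. Of its 18 genes 12 had a higher and 6 a lower mean, where 9105 of 18193 genes had a higher one, and 0 of them passed. E2f3, an activator, read 6.84, 6.96 and 7.28 in WT and 7.59, 7.39 and 7.34 in the EKO group (difference 0.41, SE 0.136, adjusted p = 0.625). Its groups did not overlap, and the difference was 0.21 with a mean over its probe sets. E2f7, a repressor, read 7.31, 7.33 and 7.08 against 7.87, 7.32 and 7.91 (difference 0.46, SE 0.173, adjusted p = 0.662). Its close relative E2f8, named after its values were seen, read 8.78, 8.76 and 8.33 against 9.35, 8.77 and 9.15 (difference 0.47). In E2f7, E2f8 and Ccne1 alike, EKO replicates 1 and 3 lay above all WT values and EKO replicate 2 lay within them. Without EKO replicate 2 the difference of E2f7 was 0.65 (adjusted p = 0.157).

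Rbl1, the gene of the retinoblastoma relative p107, read 8.92, 8.90 and 8.80 in WT and 9.16, 9.12 and 9.14 in EKO tumours, tight and without overlap (difference 0.27, SE 0.0791, adjusted p = 0.621). It dropped to 0.03 with a mean over its probe sets. Rbl2, the gene of p130, which holds resting cells out of the cycle, read 7.23, 7.19 and 7.09 against 6.78, 7.11 and 6.62 (difference -0.33, adjusted p = 0.691). E2f4, the E2F that works with p130, had values of 5.46, 5.45 and 5.52 against 5.37, 5.22 and 5.36 (difference -0.16). Rbl2 and E2f4 were also named after their values were seen.

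**Figure D5:**
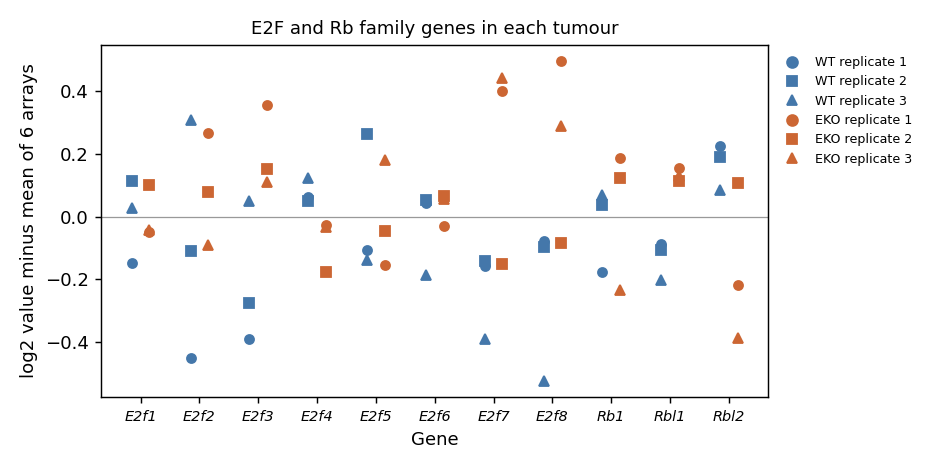
Log2 value minus the gene's mean over the 6 arrays (vertical axis) for E2f1 to E2f8 and the 3 Rb family genes (horizontal axis), with 1 point per tumour, WT in blue and EKO in orange and the replicate by shape. E2f3 and Rbl1 are higher and E2f4 lower in all EKO tumours, and the other genes overlap.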

How the data were processed

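Total RNA of tumour cells from 3 WT and 3 EKO mice was hybridised as biotin-labelled cRNA, 1 array per sample. The values the authors deposited are on a log2 scale, and the submitters' processing notes name RMA and Partek 6.6 as tools. RMA subtracts background, equalises the arrays' distributions and summarises each probe set, which narrows low differences and can hide a shift shared by most genes. The values were used as deposited, and scan dates and detection calls were not used here.

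Of 45101 probe sets, 64 controls, 932 with several gene symbols and 9160 unnamed here were left out. Each of the 18193 genes was represented by its brightest probe set, by the mean of 6 arrays. The difference between EKO and WT was fitted with limma (version 3.58.1, R 4.3.3), and two-sided p-values were adjusted by Benjamini-Hochberg across these genes and called under 0.05. Intervals are limma's at 95%. The procedure was tested on simulated data. A gene's own values are given for Fabp5, 10 members listed for their roles (Ccnb1 among them, which was not analysed), the 5 members with the smallest p of the S phase and G2/M lists, and up to 3 genes with the smallest p of each further list. Other genes are described by their differences, or are named as chosen after their values were seen. Members and lists were chosen with earlier results of these data known. Scores have no test for that reason.

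Alternatives were a replicate block, the upper 50% of genes by mean, quantile normalization done again, centred medians, a variance trend with robust fitting, estimated weights of arrays, a mean over probe sets, each array left out, a threshold of 0.1, and for scores a median or scaled members. A score without Tyms and a mean over probe sets not below the lower quartile in all arrays were added after seeing the data. Promoter windows are RefSeq's (GRCm38.p6).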

Additional observations from a re-analysis of the deposited data

How the results depend on the processing

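None of the 35 members passed under any of the 15 alternatives run, where their adjusted p ran from 0.237 to 1.0. With a replicate block 1 gene passed over all genes and 0 members did, the smallest adjusted p of a member being 0.79. The replicate numbers gave no sign of pairing, as deviations of same-numbered arrays correlated at -0.07, -0.09 and -0.34. With 3 arrays in each group such correlations cannot settle whether the numbers pair the samples. The number of genes past the threshold ran from 1 to 42 when 1 array was left out, with 42 without EKO replicate 2 and 2 without WT replicate 2, and the members past it stayed at 0. Members without overlap on the higher side numbered 0 as reported, 2 after a repeated quantile normalization, 1 with a mean over probe sets and 1 with a mean over those not below the lower quartile in all arrays (added after seeing the data), and on the lower side from 2 to 4 over 5 alternatives. The score differences moved by less than their SD under every alternative run, from -0.09 to 0.03 for S phase (0.00 without Tyms), from -0.13 to -0.00 for G2/M, from -0.01 to 0.15 for G1/S and from 0.01 to 0.07 for S minus G2/M. The sign of the difference never changed for 18 members and changed at least once for the others. Of the genes named from the further lists for their smallest p, Atr and Troap changed sign, each under 2 alternatives. E2f8, Rbl2 and E2f4 were not run under the alternatives. Values near the floor of the arrays, as for Tyms, and the 3 arrays in each group limit the precision.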
